A study of Mus musculus with 9 samples.

Results

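Transcript levels of 7 genes, Bin1, Picalm, Cd2ap, Sorl1, Abca7, Ptk2b and Fermt2, were read from bulk RNA sequencing of mouse brain taken without the cerebellum. The genes are mouse orthologs of human Alzheimer risk loci that act in endocytosis and cell adhesion. They were chosen by symbol from 56748 genes in the table of read counts, and each of the 7 symbols matched 1 gene. All mice were 7 months old per the labels. The 3 wild-type mice carried no transgene named in the labels. The 3 5xFAD mice belong to an amyloid line in which, as background, the neuronal Thy1 promoter drives human APP with familial Alzheimer mutations. The 3 5xFAD/Cd5l tg/wt mice also express mouse Cd5l from a transgene with a human PDGF-B promoter, so that both amyloid genotypes share the amyloid transgenes. The labels count each library as 1 mouse and do not say whether mice shared a litter or a cage, so that p-values measure the spread between these libraries.

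Cells take in receptors and lipids through clathrin-coated pits, which adaptor proteins load, membrane-bending proteins shape and actin helps to pull inward. Cargo then passes through early endosomes, from which sorting receptors return it to the Golgi or the surface or let it go on to lysosomes. In neurons this route carries the amyloid precursor protein to and from the compartments where it is cut. Adhesion proteins bind integrins to the actin cytoskeleton, and common variants near genes of both processes have been linked to late-onset Alzheimer disease in human studies.

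Libraries held 14575416 to 17865150 counts, so that 1 count was worth 0.0561 to 0.0691 CPM (counts per 1e06 of the library size scaled by TMM). The targeted gene, Cd5l, was read 2553, 2822 and 3551 times with the transgene and 1 time in total over the other 6 libraries. Markers of neurons, oligodendrocytes, astrocytes, microglia and endothelium were detected in every library. Wild-type library 3 stood apart, with a summed level of 995 CPM over 8 cerebellar markers, against 190 to 266 CPM in the other 8 libraries. The cerebellar receptor gene Gabra6 had 0 counts in 5xFAD library 3 and in 5xFAD/Cd5l tg/wt libraries 1 and 2. Differences from wild-type are also given without wild-type library 3 for Sorl1, Abca7 and Ptk2b, for which that library was the highest or lowest of the 9 libraries. In a bulk sample, fewer cells of a type and less RNA per cell cannot be told apart.

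All 7 genes passed the filter on low counts, which kept 17575 genes. Per length of the gene, expressed as CPM per kb, Bin1 and Ptk2b were the most abundant of the 7, with medians over the 9 libraries of 64.4 and 64.0. These 2 genes could not be ordered, since Bin1 was above Ptk2b in 4 of 9 libraries. Sorl1 followed at a median of 31.0 CPM per kb, Fermt2 at 16.6, Picalm at 10.3, Abca7 at 3.38 and Cd2ap at 1.60. Each gene from Ptk2b to Abca7 lay above the next one in 9 of 9 libraries, and their ranges did not overlap. Bin1 had the narrowest range over the 9 libraries, with a highest level 1.12 times the lowest. Cd2ap had the widest at 1.86 times, and Abca7 came next at 1.80 times. Abca7 and Cd2ap are also the 2 members with the fewest reads, 277 to 476 and 288 to 630 counts per library, whereas the other 5 had at least 1018 counts in every library.

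**Figure D1:**
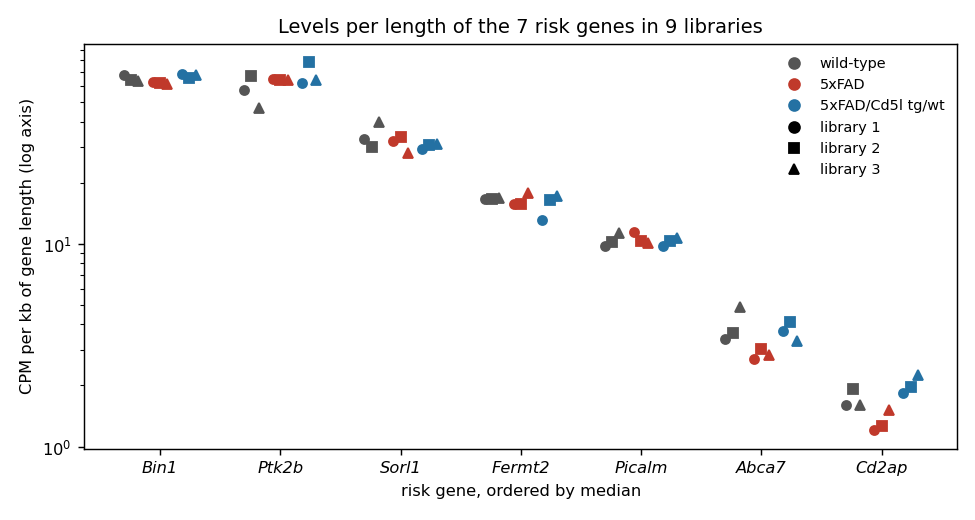
CPM per kb of gene length (log axis) for the 7 risk genes in 9 libraries, with 1 point per library, colours for genotypes and shapes for library numbers. Bin1 and Ptk2b share the top with medians of 64.4 and 64.0, and Cd2ap is lowest with a median of 1.60.

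Each genotype pair was compared over 3 libraries a group with edgeR's quasi-likelihood test, and a gene passed where its p, adjusted by Benjamini-Hochberg over 17575 genes, was under 0.05. Differences are log2 fold changes ± SE, with 95% intervals from the fit. All 3 comparisons draw on the same 9 libraries, and the first and the second share the 5xFAD libraries. Before adjustment, 2861 of 17575 genes had a p under 0.05 in 5xFAD against wild-type. There were 3914 such genes between the amyloid genotypes and 2177 in 5xFAD/Cd5l tg/wt against wild-type. The 1 passing result among the 7 genes was a higher level of Cd2ap in 5xFAD/Cd5l tg/wt than in 5xFAD mice.

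For 5xFAD against wild-type, the question was what the amyloid model changed. In this comparison 0 of 7 genes passed in edgeR, against a background of 3.5% of all tested genes, 1.06% higher and 2.44% lower. Cd2ap and Abca7, both lower in 5xFAD, were the 2 with an unadjusted p under 0.05. DESeq2 passed 1 gene, Abca7, and limma-voom passed 0. The median log2 fold change of the 7 was -0.07, beside -0.01 over all tested genes. For Bin1, Cd2ap and Abca7 every 5xFAD library lay below every wild-type library, which also held for 13.9% of all tested genes. Another 10.4% lay wholly above, which makes 24.3% in either direction.

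The second comparison, between the amyloid genotypes, asked what Cd5l expression changed in the amyloid model. Here 1 of 7 genes passed and it rose, while 6.23% of all tested genes passed, 5.34% with a rise and 0.888% with a fall. The median log2 fold change was 0.08, beside 0.01 over all tested genes. Bin1, Cd2ap and Abca7 lay higher in every library with the transgene than in any 5xFAD library, as did 16.6% of all tested genes. Another 12.1% lay wholly lower, which makes 28.7% in either direction. In the third comparison, 5xFAD/Cd5l tg/wt against wild-type, 0 of 7 passed in edgeR, with a background of 1.58% (1.38% higher and 0.199% lower). Groups that did not overlap were found for 0 of 7 genes, against 14.5% of all tested genes (7.93% higher and 6.53% lower). Ptk2b was the 1 gene at an unadjusted p under 0.05, and DESeq2 and limma-voom passed 0 genes. The median log2 fold change was -0.02, beside 0.00 over all tested genes.

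**Figure D2:**
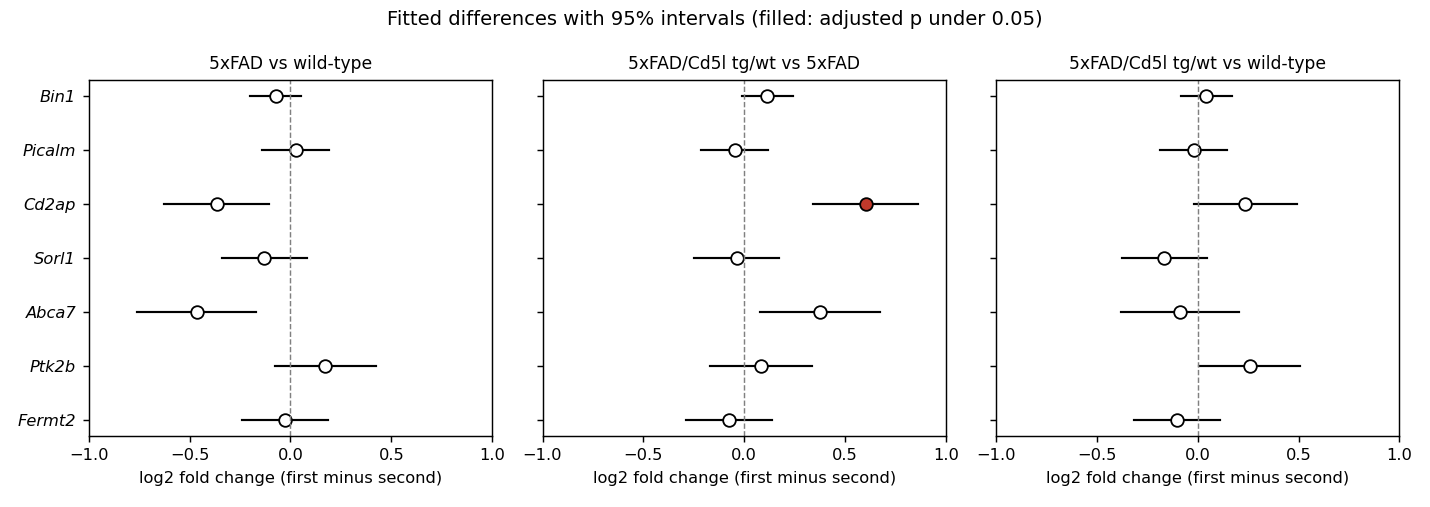
Fitted log2 fold change (point) and 95% interval (line) of each risk gene in the 3 genotype comparisons, first genotype minus second, n = 3 libraries a genotype. The filled point, Cd2ap in 5xFAD/Cd5l tg/wt against 5xFAD at 0.60, marks the 1 result past the threshold.

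Picalm encodes a clathrin assembly protein that binds phosphoinositides and helps form the coated pit (chromosome 7, 89779421 to 89862673, GRCm39). It was at 154, 160 and 178 CPM in wild-type, 179, 162 and 159 CPM in 5xFAD, and 154, 163 and 168 CPM in 5xFAD/Cd5l tg/wt libraries. The genotypes overlapped throughout. The difference between 5xFAD and wild-type was 0.03 ± 0.08 on the log2 scale, with a 95% interval of -0.14 to 0.19 (adjusted p = 0.913). Between the amyloid genotypes it was -0.05 ± 0.08, with an interval of -0.21 to 0.12 (adjusted p = 0.759).

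Bin1 encodes an amphiphysin-family protein that senses and bends membranes. It was at 279, 265 and 260 CPM in wild-type, 257, 256 and 253 CPM in 5xFAD, and 282, 269 and 278 CPM in 5xFAD/Cd5l tg/wt libraries. All 3 5xFAD libraries were below the other 6, but by a small margin. Bin1 in 5xFAD was 255 ± 2.21 CPM (SD, n = 3), against 268 ± 9.86 in wild-type. The log2 difference was -0.07 ± 0.06 for 5xFAD against wild-type (interval -0.20 to 0.05, adjusted p = 0.608). Between the amyloid genotypes it was 0.12 ± 0.06 (interval -0.01 to 0.24, adjusted p = 0.266). Neither passed. The long non-coding gene A830052D11Rik overlaps Bin1 on the opposite strand and had 2.17% as many counts, and whether reads were counted by strand is not given here.

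Cd2ap encodes a scaffold that links endocytic receptors to actin through SH3 domains (chromosome 17, 43103842 to 43187556, GRCm39). Its 250 bases before the transcription start are shown because it is the 1 member that passed. The window comes from RefSeq (GRCm38.p6, chr17:42876425-42876674, minus strand), and capitals would mark the motifs listed further on.
Cd2ap: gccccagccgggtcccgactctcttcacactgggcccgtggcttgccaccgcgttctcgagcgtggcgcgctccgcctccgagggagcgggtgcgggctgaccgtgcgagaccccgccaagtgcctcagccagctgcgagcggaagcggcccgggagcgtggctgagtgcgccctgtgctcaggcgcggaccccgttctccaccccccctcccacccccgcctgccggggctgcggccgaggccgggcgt

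Cd2ap was at 25.4, 30.6 and 25.4 CPM in wild-type, 19.1, 20.03 and 24.1 CPM in 5xFAD, and 29.2, 31.0 and 35.5 CPM in 5xFAD/Cd5l tg/wt libraries. The 5xFAD libraries were the 3 lowest of all 9, and the highest of them, library 3, came close to the lowest wild-type library. The wild-type and 5xFAD/Cd5l tg/wt libraries overlapped. In 5xFAD/Cd5l tg/wt against 5xFAD the level rose 1.52-fold, a log2 fold change of 0.60 ± 0.12 with an interval of 0.34 to 0.86 (adjusted p = 0.0116). In 5xFAD against wild-type the difference was -0.37 ± 0.12 with an interval of -0.63 to -0.11, and it did not pass (adjusted p = 0.137). 5xFAD/Cd5l tg/wt mice were 0.24 ± 0.12 above wild-type, which did not pass (interval -0.02 to 0.49, adjusted p = 0.45). Without 5xFAD/Cd5l tg/wt library 3 that difference was 0.15 ± 0.13 (adjusted p = 0.736), and over all alternatives it ran from 0.06 to 0.33, with adjusted p from 0.235 to 0.907. The rise kept its direction but missed the threshold when 1 of 3 libraries was left out: 5xFAD/Cd5l tg/wt library 3 (0.51, adjusted p = 0.0628), 5xFAD library 1 (0.53, 0.0783) or 5xFAD library 2 (0.56, 0.0814). It also missed it (0.46 ± 0.15, adjusted p = 0.105) in a fit without wild-type library 3 and both 5xFAD/Cd5l tg/wt libraries 2 and 3. That fit holds 1 mouse with the Cd5l transgene, which is assumed to vary like the other groups, so that the lost call is no measure of stability. Over all 19 alternatives the adjusted p ran from 3.62e-05 to 0.105.

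Vessel markers and nuclear RNAs moved with the same libraries. The summed level of 12 endothelial and mural markers was 376 to 421 CPM in wild-type, 261 to 311 CPM in 5xFAD and 415 to 462 CPM in 5xFAD/Cd5l tg/wt libraries. Of these 12 genes, 4 fell in 5xFAD against wild-type, where 2.44% of all tested genes fell. Between the amyloid genotypes 8 rose, higher with Cd5l, where 5.34% of all tested genes rose. None of the 12 was at 0 in any library. Within each genotype the same library was highest for Cd2ap and for the summed vessel markers. The library highest in both was library 2 among wild-type mice and library 3 in both amyloid genotypes. Those libraries were also highest in their genotype for the summed nuclear RNAs and for 10 summed microglial markers. The shared highest library was thus not particular to vessel markers, but the lists differed over all 9 libraries. Pearson's r of log2 levels with Cd2ap was 0.96 for vessel markers, 0.93 for nuclear RNAs and 0.08 for microglial markers. After removal of genotype means it was 0.93, 0.75 and 0.68. These values are a description, with no test. Summed nuclear-retained long non-coding RNAs (8 genes, Malat1 and Meg3 among them) were 3258 to 4377 CPM in wild-type, 1486 to 1753 CPM in 5xFAD and 3554 to 5468 CPM in 5xFAD/Cd5l tg/wt libraries. Of these 8 genes, 7 fell in the first comparison and 8 rose in the second, beside the same 2.44% and 5.34% of all tested genes. None of these was at 0 in any library. The part of either list in the Cd2ap result was not tested. With offsets for gene length in each library, the rise of Cd2ap was 0.49 ± 0.12 (adjusted p = 0.0402), beside 0.60 without them (adjusted p = 0.0116). These offsets take account of neither list.

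**Figure D3:**
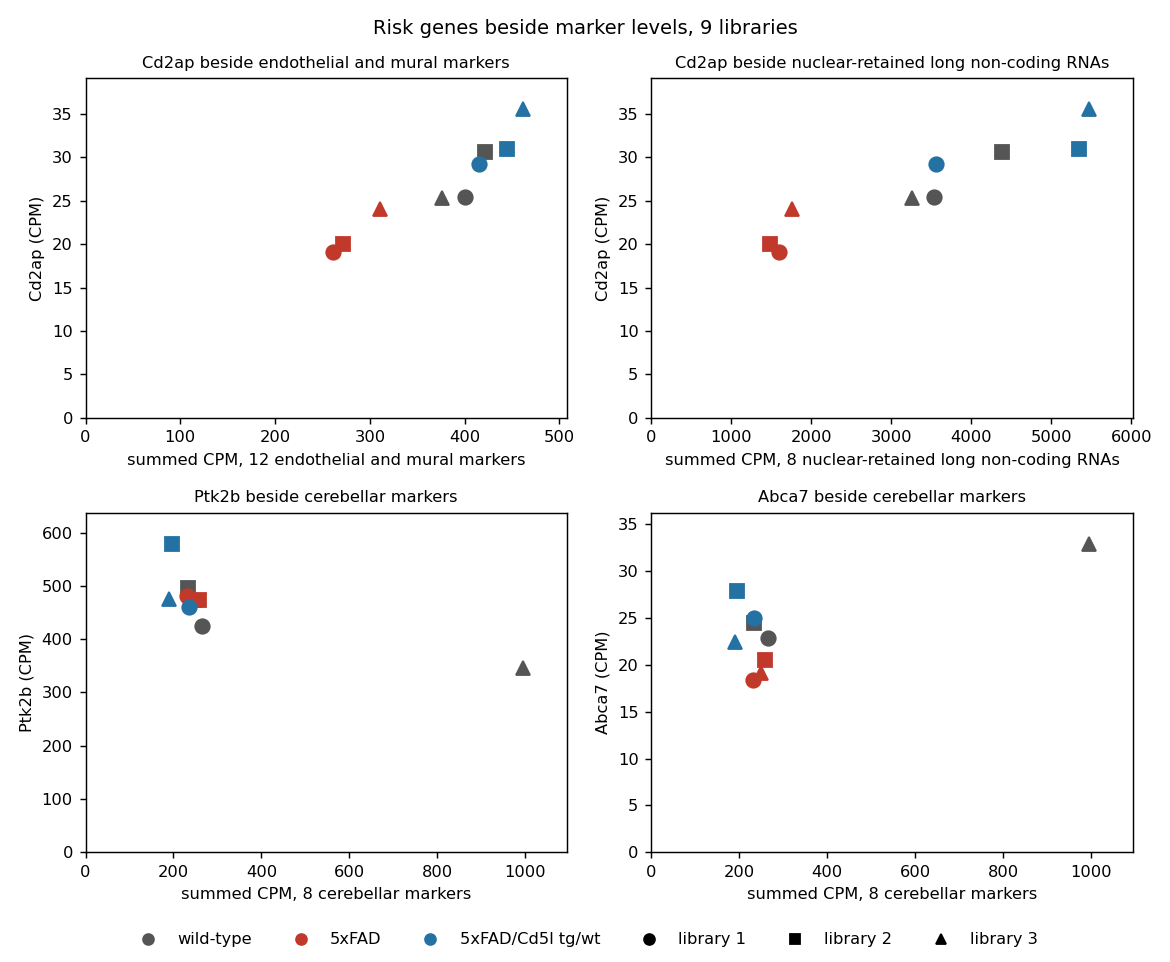
Level of a risk gene in CPM (vertical axes) against the summed CPM of a marker list (horizontal axes) in 9 libraries, with colours for genotypes and shapes for library numbers. Cd2ap is lowest in the 3 5xFAD libraries, which are also lowest in vessel markers (261 to 311 CPM) and nuclear RNAs (1486 to 1753 CPM), and wild-type library 3 lies alone at 995 CPM of cerebellar markers with the lowest Ptk2b and the highest Abca7.

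Sorl1 encodes a sorting receptor that binds the amyloid precursor protein in endosomes and returns it with the retromer complex (chromosome 9, 41876016 to 42035593, GRCm39). It was at 370, 340 and 449 CPM in wild-type, 364, 378 and 318 CPM in 5xFAD, and 333, 349 and 351 CPM in 5xFAD/Cd5l tg/wt libraries. Wild-type library 3 was the highest of the 9, and the genotypes otherwise overlapped. Relative to wild-type the log2 difference was -0.13 ± 0.10 in 5xFAD (interval -0.34 to 0.08, adjusted p = 0.578) and -0.17 ± 0.10 in 5xFAD/Cd5l tg/wt mice (interval -0.38 to 0.04, adjusted p = 0.54). Without wild-type library 3 these were -0.01 ± 0.08 (adjusted p = 0.985) and -0.04 ± 0.08 (adjusted p = 0.924). Their adjusted p ran from 0.383 to 0.985 and from 0.276 to 0.924 over all alternatives. Between the amyloid genotypes Sorl1 differed by -0.04 ± 0.10 (interval -0.25 to 0.17, adjusted p = 0.856).

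Abca7 encodes an ABC transporter that moves phospholipids and takes part in phagocytosis (chromosome 10, 79832328 to 79851406, GRCm39). The 250 bases before its transcription start (RefSeq, GRCm38.p6, chr10:79996244-79996493, plus strand) are shown as the other member whose unadjusted p was under 0.05 in both comparisons with 5xFAD, with GC and CCAAT boxes in capitals.
Abca7: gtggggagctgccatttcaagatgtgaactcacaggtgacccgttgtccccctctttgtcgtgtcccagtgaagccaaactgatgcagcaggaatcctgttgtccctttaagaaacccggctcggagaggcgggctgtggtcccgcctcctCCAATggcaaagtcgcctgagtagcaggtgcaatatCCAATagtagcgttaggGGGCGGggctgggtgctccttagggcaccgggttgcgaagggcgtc

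Abca7 was at 22.8, 24.5 and 32.9 CPM in wild-type, 18.3, 20.5 and 19.1 CPM in 5xFAD, and 25.03, 27.9 and 22.5 CPM in 5xFAD/Cd5l tg/wt libraries. The 5xFAD libraries were the 3 lowest, and wild-type library 3 was the highest of all. In 5xFAD against wild-type the log2 difference was -0.47 ± 0.14 (interval -0.76 to -0.17), short of the threshold in edgeR (adjusted p = 0.094). It passed in DESeq2 (adjusted p = 0.0494) and without a filter on low counts (0.00666), and the adjusted p ran up to 0.311 over all alternatives. Without wild-type library 3 the difference was -0.29 ± 0.11 (adjusted p = 0.232). In 5xFAD/Cd5l tg/wt against 5xFAD it was 0.38 ± 0.14 (interval 0.08 to 0.67, adjusted p = 0.125). That difference passed without wild-type library 3 (0.38 ± 0.10, adjusted p = 0.0465) and without a filter (0.0473), in a range of up to 0.328 over all alternatives. Against wild-type, 5xFAD/Cd5l tg/wt mice differed by -0.09 ± 0.13 (interval -0.38 to 0.20, adjusted p = 0.85), and by 0.08 ± 0.11 without wild-type library 3 (adjusted p = 0.881, within 0.667 to 0.983 over all alternatives). The part of cerebellar tissue in the high value of that library was not tested.

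RefSeq windows were found for 5 of the 7 genes, and 5 short motifs were searched on both strands of the 250 bases. These were the TATA box (TATAAA), the GC box (GGGCGG), the core of the cAMP response element (TGACG), the E-box (CACGTG) and the CCAAT box (CCAAT), some of which overlap where they share letters. The Cd2ap window held none of them, and 76.4% of its bases were G or C, against a median of 52.4% over 32851 windows. The Abca7 window, at 58.8% G or C, held 1 GC box, 46 bases before the start, and 2 CCAAT boxes, 99 and 63 bases before it. A GC box was present in 32.7% and a CCAAT box in 33.8% of all windows. The E-box, present in 6.02% of all windows, occurred 1 time each in Picalm and Sorl1, and the cAMP element core, present in 17.8%, 2 times in Picalm and 1 time in Sorl1, where both motifs overlapped each other. Picalm held 6 GC boxes and Fermt2 5. The TATA box occurred in 12.4% of all windows and in 0 of these 5.

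Ptk2b encodes a calcium-activated kinase of the focal adhesion kinase family, abundant in forebrain neurons (chromosome 14, 66390706 to 66518501, GRCm39). It was at 425, 496 and 346 CPM in wild-type, 481, 473 and 474 CPM in 5xFAD, and 460, 579 and 475 CPM in 5xFAD/Cd5l tg/wt libraries. The genotypes overlapped, with wild-type library 3 lowest and 5xFAD/Cd5l tg/wt library 2 highest. The 5xFAD libraries were close together, at 476 ± 4.53 CPM, whereas wild-type libraries gave 422 ± 74.8 CPM (SD, n = 3). Against wild-type, 5xFAD/Cd5l tg/wt mice were 0.26 ± 0.12 higher on the log2 scale (interval 0.01 to 0.51), which did not pass (adjusted p = 0.393). It passed without a filter on low counts (adjusted p = 0.0385). Without wild-type library 3 it was 0.13 ± 0.10 (adjusted p = 0.735), and without 5xFAD/Cd5l tg/wt library 2 it was 0.15 ± 0.12 (adjusted p = 0.784). In the fit with 1 mouse of that genotype described for Cd2ap it was -0.01 ± 0.08 (adjusted p = 0.982), with a spread taken from the other groups, and over all alternatives the adjusted p ran from 0.0385 to 0.982. Library 2 of 5xFAD/Cd5l tg/wt also had the lowest summed level of 10 oligodendrocyte markers, 4960 CPM, against 6814 to 8696 CPM in the other 8. None of those 10 markers was at 0 in any library, 0 of 10 passed in edgeR in any of the 3 comparisons (0, 4 and 7 at an unadjusted p under 0.05; 0, 1 and 2 in DESeq2), and their part in the Ptk2b value was not tested. In 5xFAD against wild-type Ptk2b differed by 0.17 ± 0.12 (interval -0.08 to 0.42, adjusted p = 0.52). Without wild-type library 3 that difference was 0.05 ± 0.10 (adjusted p = 0.86), and without wild-type library 2 it was 0.32 ± 0.11 (adjusted p = 0.193), the 2 ends of its adjusted p over all alternatives. Between the amyloid genotypes Ptk2b differed by 0.08 ± 0.12 (interval -0.17 to 0.34, adjusted p = 0.708).

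Fermt2 encodes kindlin-2, which binds integrin tails and switches integrins on (chromosome 14, 45696252 to 45767575, GRCm39). It was at 86.2, 86.6 and 87.1 CPM in wild-type, 81.2, 81.4 and 92.4 CPM in 5xFAD, and 67.8, 85.2 and 88.9 CPM in 5xFAD/Cd5l tg/wt libraries. Wild-type mice were within 1 CPM of each other, and 5xFAD/Cd5l tg/wt library 1 was the lowest of the 9. The log2 difference was -0.03 ± 0.10 for 5xFAD against wild-type (interval -0.24 to 0.18, adjusted p = 0.931) and -0.08 ± 0.10 for 5xFAD/Cd5l tg/wt against 5xFAD (interval -0.29 to 0.14, adjusted p = 0.689). 5xFAD/Cd5l tg/wt mice differed from wild-type by -0.10 ± 0.10 (interval -0.32 to 0.11, adjusted p = 0.733). The last 2 differences were 0.03 ± 0.08 (adjusted p = 0.838) and 0.00 ± 0.08 (adjusted p = 0.985) without 5xFAD/Cd5l tg/wt library 1. In the fit with library 1 as the 1 mouse of its genotype they were -0.34 ± 0.10 (adjusted p = 0.0768) and -0.36 ± 0.10 (adjusted p = 0.131), on the assumption that the lone library varies like the other groups.

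**Figure D4:**
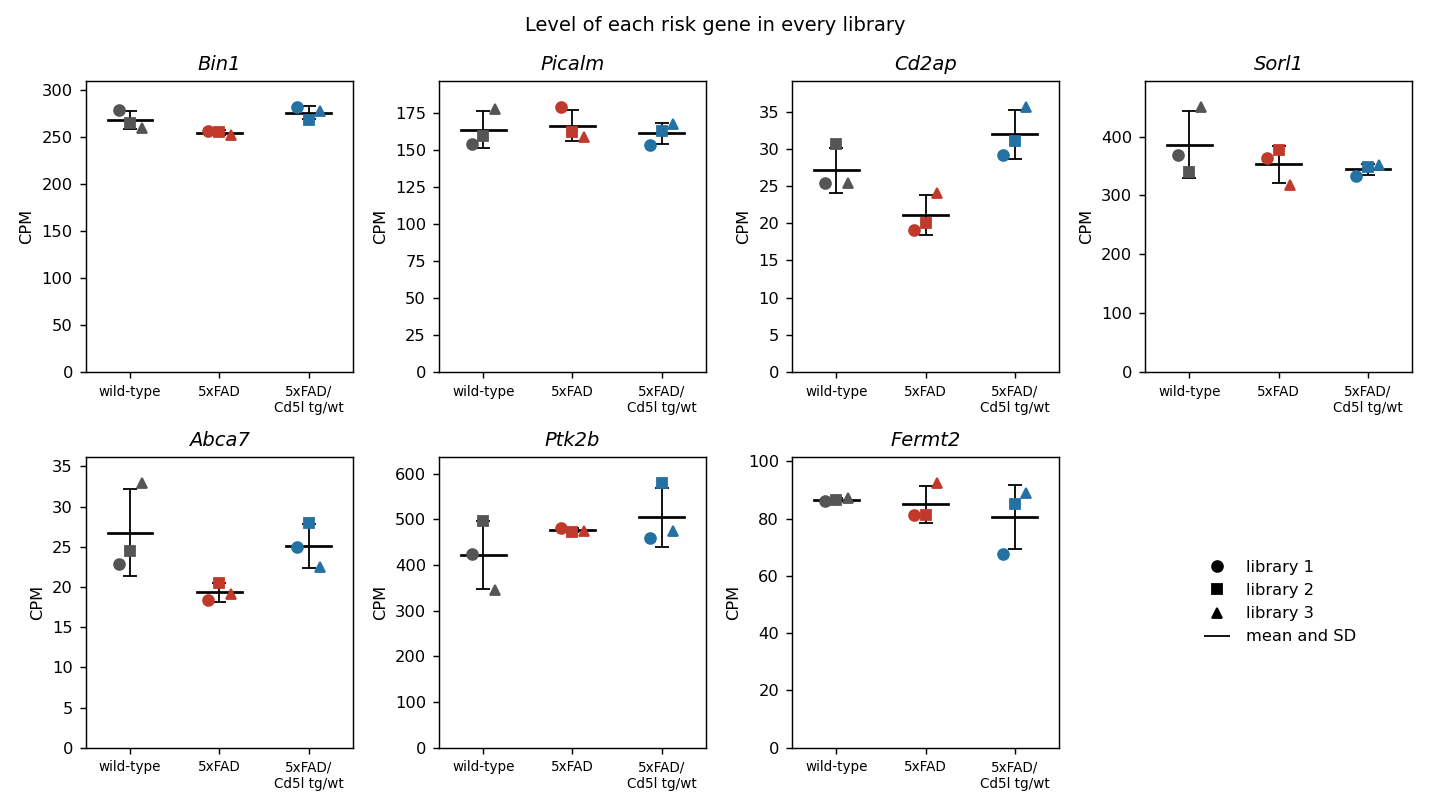
CPM of each risk gene by genotype, with 1 point per library (shapes give library numbers) and the mean and SD of n = 3 libraries; every axis starts at 0. The 5xFAD libraries lie below all others for Bin1, Cd2ap and Abca7, at 253 to 257, 19.1 to 24.1 and 18.3 to 20.5 CPM.

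The 7 genes have paralogs in the brain, of which 16 were tested. In the first and the second comparison 0 of 16 passed in edgeR, with 2 and 4 at an unadjusted p under 0.05, 0 and 0 in DESeq2, and 0 and 1 in limma-voom. In 5xFAD/Cd5l tg/wt against wild-type 2 of 16 rose and 0 fell in edgeR, where 1.38% of all tested genes rose and 0.199% fell. DESeq2 passed 3 of 16 and limma-voom 2, all of them higher with the transgene. Fermt3, the kindlin of blood cells and myeloid cells, rose by 1.06 ± 0.17 from 4.0 to 8.38 CPM (adjusted p = 0.00561). Bin2, a relative of Bin1 found in leukocytes, rose by 0.84 ± 0.16 from 5.31 to 9.58 CPM (adjusted p = 0.0156). In the same comparison Fermt2 and Bin1 were at -0.10 and 0.04, and the difference between paralogs was not tested. Between the amyloid genotypes Fermt3 was at 0.58 ± 0.17 (adjusted p = 0.0606) and Bin2 at 0.54 ± 0.16 (adjusted p = 0.0621). Neither passed in edgeR. All 10 microglial markers rose in 5xFAD and 9 of 10 rose in 5xFAD/Cd5l tg/wt mice against wild-type, beside 1.06% and 1.38% of all tested genes. Between the amyloid genotypes 0 of these 10 markers passed with any of the 3 tools, and their median log2 fold change was 0.14. Their summed level was 350 to 396 CPM in wild-type, 687 to 888 CPM in 5xFAD and 816 to 942 CPM in 5xFAD/Cd5l tg/wt libraries, none was at 0, and their part in the paralog results was not tested.

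Other genes of the same routes were mostly short of the threshold. Of 30 genes of the clathrin coat and vesicle formation, 0 passed in any of the 3 comparisons in edgeR or limma-voom. At an unadjusted p under 0.05 there were 4 in 5xFAD against wild-type, 9 in 5xFAD/Cd5l tg/wt against 5xFAD and 1 in 5xFAD/Cd5l tg/wt against wild-type, and DESeq2 passed 0, 2 and 0. Over all 17575 tested genes 2861, 3914 and 2177 had an unadjusted p under 0.05 in edgeR, in the same order. The median log2 fold change of this list was 0.01 between the amyloid genotypes, equal at 2 decimals to that of all tested genes. Of 14 actin partners of Cd2ap, such as the capping protein genes, 0 passed with any of the 3 tools, and 5, 1 and 1 had an unadjusted p under 0.05 in edgeR in the 3 comparisons in the same order. Their median in 5xFAD/Cd5l tg/wt against 5xFAD was -0.07, on the other side of 0 from Cd2ap.

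Among 23 genes of the early endosome and Rab GTPases 1 fell in 5xFAD against wild-type, where 2.44% of all tested genes fell. It was Appl2, an adaptor on Rab5 endosomes, at -0.54 ± 0.12, from 101 to 69.4 CPM (adjusted p = 0.0288). In the other 2 comparisons 0 of 23 passed in edgeR and limma-voom, with 1 and 0 at an unadjusted p under 0.05 in edgeR, and DESeq2 passed 1 and 0. Of 26 retromer and endosomal sorting genes 1 fell in 5xFAD/Cd5l tg/wt against 5xFAD, where 0.888% of all tested genes fell. It was Snx3, a sorting nexin that works with retromer, which fell by 0.33 on the log2 scale (SE 0.08) from 146 to 116 CPM (adjusted p = 0.0259). In both comparisons with wild-type 0 of 26 passed with any of the 3 tools, with 1 and 1 at an unadjusted p under 0.05 in edgeR.

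Integrin and focal adhesion genes are the partners of Fermt2 and Ptk2b. Of 29 genes, 1 rose and 1 fell in 5xFAD against wild-type, where 1.06% of all tested genes rose and 2.44% fell. Itgb5, an integrin beta chain, rose by 0.72 ± 0.09 from 58.9 to 97.2 CPM (adjusted p = 0.000772), and Flna, an actin crosslinker, fell by 0.64 (SE 0.08) from 68.2 to 43.7 CPM (adjusted p = 0.00085). In 5xFAD/Cd5l tg/wt against 5xFAD 5 of 29 rose and 0 fell, where 5.34% of all tested genes rose and 0.888% fell. DESeq2 passed 6 and limma-voom 4, all higher with the transgene, and the list median was 0.05 beside 0.01 over all tested genes. They were Flna at 0.75 ± 0.08 (adjusted p = 0.000351), the talin partner Vcl at 0.39 ± 0.08 (adjusted p = 0.0188), the collagen receptor Itga1 at 0.78 ± 0.21 (adjusted p = 0.0441), Tns2 and Itga6. The 5xFAD libraries enter both comparisons of Flna. In 5xFAD/Cd5l tg/wt against wild-type 1 of 29 rose, where 1.38% of all tested genes rose. It was Itgb5 at 0.65 ± 0.09 (adjusted p = 0.00186). The vessel marker levels given for Cd2ap moved with the same libraries, and their part in these 5 rises was not tested.

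For each of the 7 genes the most similar genes, at most 3, were sought among 10540 tested genes with a mean of at least 10 CPM, by Pearson's r of log2 CPM over the 9 libraries. These are the highest of many values and are given as a description, with no test. Cd2ap was most like Slf1 (r = 0.99), the gene listed as ENSMUSG00000119994 (0.98) and Tubgcp3 (0.97). Ptk2b was most like Ddn (r = 0.98), the NMDA receptor subunit gene Grin2b (0.97) and Ak5 (0.97). The nearest to Abca7 were Ccdc50 and Ppip5k1 (r = 0.97 and 0.96). Sorl1 was nearest to Narf, Kcnk12 and Ttc39b (0.97, 0.95 and 0.93), and Bin1 to Lama2, Rnpepl1 and E2f1 (0.96, 0.96 and 0.96). Picalm was nearest to Pfdn4, Ogfrl1 and Ldah (0.93, 0.92 and 0.91), and Fermt2 to Fosb, Usp25 and Egr1 (0.96, 0.93 and 0.93). Fosb and Egr1 are immediate early genes. No member was among the 3 most similar genes of another.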

How the data were processed

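The authors deposited 1 table of unnormalized read counts per gene (56748 genes, 9 libraries), with symbols, coordinates and gene lengths in bases, per the file headers. The genome build is GRCm39, per the submitters' processing notes; aligner, counting tool and strandedness: not given in the sources used here. Genotypes came from the labels. Genes were kept by filterByExpr (minimum count 10, minimum total 15), scaled by TMM and fitted over all 9 libraries with edgeR 4.0.16 (R 4.3.3) by the quasi-likelihood test, with Benjamini-Hochberg adjustment at 0.05. SE is the absolute log2 fold change divided by the square root of F. Levels between genes were compared per kb of the deposited gene length. The fit was tested on simulated data. It recovered 34.3%, 40.3% and 40.3% of 1.5-fold changes in the 3 comparisons, and 73.1%, 74.6% and 74.6% of 2-fold changes. Of the calls, 7.53%, 4.32% and 4.26% were false. Changes near 1.5-fold were thus mostly missed. Named genes were the 7 members, at most 3 passing genes a list by smallest p, and the 3 most similar genes, of which 1 for Abca7 is not reported here. Members and lists were chosen with earlier results of these data known. Alternatives were RLE and upper-quartile scaling, no filter, 1 CPM in 3 libraries, DESeq2 1.42.0, limma-voom (limma 3.58.1), only the 6 libraries compared, a replicate block, gene length offsets, each library left out, and 3 libraries that earlier results of these data had set apart (wild-type 3, 5xFAD/Cd5l tg/wt 2 and 3) left out together. Same-numbered libraries correlated at -0.10 to 0.15 after removal of genotype means, so that they were not treated as pairs. Figures used matplotlib 3.10.9.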

Additional observations from a re-analysis of the deposited data

How the results depend on the processing

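Over the 7 genes, 3 comparisons and 19 alternatives, 374 log2 fold changes kept their direction and their side of the threshold, 5 gained and 4 lost a call, and 16 changed sign, all 16 for differences that had not passed. The first comparison here is 5xFAD against wild-type, the second is between the amyloid genotypes and the third sets 5xFAD/Cd5l tg/wt beside wild-type. Passing genes numbered 615, 1095 and 277 in all, and 0, 1 and 0 of the 7. With no filter on low counts these were 1354, 2063 and 1062 in all, and 1, 2 and 1 of the 7. DESeq2 called 1 of the 7 in the first comparison and 472 genes in the third, and a fit of only the 6 libraries compared called 176 genes in the third. Without wild-type library 3 and both 5xFAD/Cd5l tg/wt libraries 2 and 3, which leaves 1 mouse with the Cd5l transgene, 1154 genes passed in the first, 630 genes in the second and 0 of the 7 in the second. That setting also turned Sorl1 in the first comparison to 0.0057, Ptk2b in the second to -0.067 and in the third to -0.0068, and Abca7 in the third to 0.075. The cause was not tested.

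With each library left out in turn, counts ran from 206 to 850, 278 to 2069 and 158 to 686 genes, and from 0 to 2 of the 7 in the second comparison. Log2 fold changes that changed sign ran from -0.027 to 0.090 (Picalm) and -0.091 to 0.0043 (Fermt2) in the first comparison. In the second they ran from -0.083 to 0.0054 (Picalm), -0.11 to 0.011 (Sorl1), -0.027 to 0.14 (Ptk2b) and -0.16 to 0.032 (Fermt2). In the third they ran from -0.062 to 0.042 (Picalm), -0.19 to 0.084 (Abca7) and -0.18 to 0.0049 (Fermt2).

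With the replicate block, 506, 836 and 240 genes passed, and 0, 1 and 0 of the 7, with Cd2ap at 0.60 in the second comparison (adjusted p = 0.0139). Library numbers were not taken to pair the mice, since same-numbered libraries correlated at -0.10 to 0.15 and others at -0.16 to 0.15. At 277 to 630 counts per library, Abca7 and Cd2ap were the least precisely counted of the 7.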
